A study of Mus musculus with 6 samples.

Results

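The cytosolic ribosomal protein genes encode the protein components of the small and large ribosomal subunits. They were chosen as the protein-coding genes of the GENCODE M21 annotation on mm10 whose symbols are Rpl or Rps followed by a number and at most an a or x, with Rplp0, Rplp1, Rplp2 and Rpsa added. The rule found 76 of 21938 protein-coding genes, of which 30 encode small subunit proteins and 46 encode large subunit proteins, the latter including the 3 genes of the P-stalk. For each gene, the strongest peak overlapping the window from 1 kb before to 1 kb after the gene-level transcription start site (TSS) was scored in each library.

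Omni-ATAC-Seq uses a transposase to cut and tag accessible DNA, and was run on 50000 nuclei per library from whole hearts of mice at postnatal day 1. All nuclei were purified over a 2.2 M sucrose cushion, and there were 3 groups with 2 biological replicates in each. By the study's methods, this cushion is the one meant for cardiomyocyte nuclei, and a lighter one serves for mixed nuclei. The Input group holds nuclei of wildtype (WT) hearts taken directly from the cushion, and the PCM1 group holds nuclei of WT hearts captured with magnetic beads and an antibody to PCM1, a protein around the nucleus of cardiomyocytes. The Myc group holds nuclei captured with a Myc antibody from hearts of genotype Nkx2-5 Cre/+; R26RSun1-Myc-Egfp/+. In these hearts the Cre is driven by the Nkx2-5 locus, so the tag marks descendants of Nkx2-5 positive progenitors, which include cardiomyocytes, smooth muscle cells and endothelial cells and not cardiomyocytes alone. The study states that it chose the 2.2 M cushion for these libraries in part to keep peaks of other cell types out of the Myc maps. Genotype and antibody changed together between Myc and the other groups, so their shares in a difference cannot be told apart. A library pools many nuclei, and fewer nuclei of a type cannot be told apart from less accessible DNA per nucleus.

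The libraries differed in depth. Input 1 and 2 had 131500 and 75336 peaks, the Myc libraries 107216 and 108513, and the PCM1 libraries 83139 and 81487. The genome-wide background, the pileup of fragment ends expected at a position without enrichment, was 3.96 and 1.02 (Input), 1.44 and 1.44 (Myc) and 0.977 and 0.903 (PCM1). Input 1 was therefore the deepest library, and a weak peak was more likely to be called there than in the other 5 libraries.

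Ribosomal protein genes are transcribed in nearly every cell, because each ribosome needs a full set of its proteins and growing cells make ribosomes continuously. Their promoters are short, lack a regular TATA box in most cases, and start transcription within a stretch of pyrimidines that lets the mTOR pathway control translation of the mRNA. In the heart around birth, cardiomyocytes leave the phase of division and begin to grow in size, a growth that depends on making new ribosomes.

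Nearly all ribosomal protein genes had an open promoter in every library. A peak lay in the window of 72 of the 76 genes in all 6 libraries, compared with 56.1% of all protein-coding genes. Per library, 74 and 73 genes had a peak for Input 1 and 2, 73 and 74 for Myc 1 and 2 and 74 and 73 for PCM1 1 and 2, whereas the share over all genes ran from 59.8% in Input 2 to 66.0% in Input 1. The strength of each peak, by its -log10 q-value, was ranked within its library. The rank percentile is the share of peaks in the same library with a lower or equal -log10 q-value, and is 0 where no peak was found. The median rank percentile of the 76 genes was 94.4 and 89.9 for Input 1 and 2, 96.0 and 96.3 for Myc 1 and 2 and 90.1 and 90.9 for PCM1 1 and 2. Over all protein-coding genes it was 77.8 and 57.8 in the Input libraries, 74.8 and 74.0 in those of Myc and 57.4 and 55.9 in those of PCM1. Much of this gap lay in the presence of a peak, since the 12311 genes with a peak in all 6 libraries had medians of 93.7 and 88.6 (Input), 93.8 and 93.7 (Myc) and 88.3 and 87.8 (PCM1). Ribosomal protein promoters were thus slightly above other open promoters in rank in each of the 6 libraries.

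**Figure D1:**
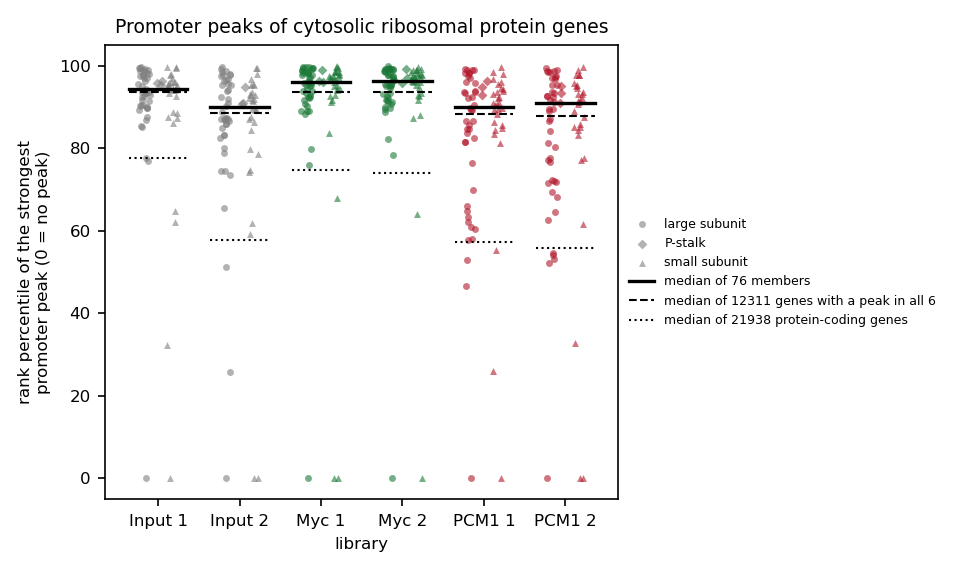
Rank percentile of the strongest promoter peak (vertical axis, 0 to 100, 0 without a peak) of the 76 cytosolic ribosomal protein genes in each of the 6 libraries, with a point for each gene, a solid line for their median, and dashed and dotted lines for the medians of the 12311 genes with a peak in all 6 and of all protein-coding genes. The medians of the ribosomal protein genes lie between 89.9 and 96.3, and Rpl17 and Rps2 lie at 0 in all 6 libraries.

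The small subunit binds the mRNA and reads its codons. Its strongest promoter was that of Rps21, which encodes a protein needed for maturation of the small subunit rRNA, with rank percentiles of 99.6 and 99.5 for Input 1 and 2, 99.8 and 99.7 for Myc 1 and 2 and 99.8 and 99.8 for PCM1 1 and 2. Rps21 stood in the top 1% of all peaks in every library, with summit pileups of 998 and 288 in the Input libraries, 361 and 361 in those of Myc and 316 and 301 in those of PCM1. Its summit lay at a median of -163.5 bp from the TSS, on the upstream side, which is at position 180257377 on chromosome 2. Rps29, a small zinc-binding protein of the subunit head, had a mean rank percentile of 99.1 over the 6 libraries. Rps19, whose loss of a copy causes Diamond-Blackfan anemia in humans, had a mean of 98.7. Rps3, which lines the mRNA entry channel, had a mean of 96.8, and Rps6, the substrate of the S6 kinases downstream of mTOR, had a mean of 96.4. Rpsa, also known as the laminin receptor precursor, had a mean of 95.5, and Rps27a, which is made as a fusion with ubiquitin, had a mean of 94.6. Of the other small subunit genes named by role, Rps4x had a mean of 86.8 and Rps14 of 65.2.

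The large subunit forms the peptide bond. Among its strongest promoters were those of Rpl15, Rpl27 and Rpl13a. The mean rank percentile was 99.5 at Rpl15, 99.4 at Rpl27 and 98.8 at Rpl13a. Rpl15, a structural protein needed for formation of the subunit, reached 99.6 and 99.3 (Input), 99.8 and 99.9 (Myc) and 99.2 and 99.4 (PCM1). Rpl13a, whose protein can be released from the ribosome to silence inflammatory mRNAs, hosts 4 small nucleolar RNA (snoRNA) genes in its introns. Rpl11 and Rpl5, which bind the 5S rRNA and can inhibit Mdm2 when ribosome assembly fails, had means of 96.9 and 86.4. Rpl10, which joins the subunit last and is needed for subunit joining, had a mean of 91.9, and Rpl36a and Rpl39 had means of 92.3 and 86.9. Rpl3, which lies near the peptidyl transferase center, had a mean of 64.2 at its gene-level TSS. The P-stalk recruits the translation factors that hydrolyze GTP. Its 3 genes Rplp0, Rplp1 and Rplp2 had means of 96.1, 94.5 and 94.6, and thus lay close together. Rplp0 is often used as a reference gene for mRNA levels.

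At the low end stood Rpl17 and Rps2 with no peak in any library, Rps10 with a peak in 4 libraries and a mean of 42.0, Rps24 with a peak in 5 and a mean of 53.1, and Rpl4 with a mean of 61.5. Rps2 binds the mRNA near the entry of the channel, and Rpl17 lines the exit of the nascent chain. Rps10 and Rps24 are both genes of Diamond-Blackfan anemia. All of these but Rpl4 had a stronger peak at another annotated transcript start of the same gene. For Rps2, the peak lay a median of 1843 bp downstream of the gene-level TSS on chromosome 17, between chr17:24719563-24720473, with pileups of 607 and 187 for Input 1 and 2, 282 and 272 for Myc 1 and 2 and 150 and 145 for PCM1 1 and 2. Its mean rank percentile there was 97.3, compared with 0 at the gene-level TSS. For Rps10, the peak was 1350 bp downstream, where its mean rank percentile was 94.3, and its edge crossed into the window in Myc 2 and PCM1 1, so that the window held 96.0 and 91.0 in these libraries and 0 in Input 2 and Myc 1. For Rps24, whose gene-level TSS is 67 bp from that of Polr3a on the other strand, the peak was 3537 bp downstream with a mean of 93.2. For Rpl17 it was 1932 bp downstream with a mean of 84.6, and stood at 90.5 and 84.8 (Input), 96.0 and 96.8 (Myc) and 58.3 and 81.3 (PCM1). Both PCM1 libraries ranked lowest there, and PCM1 1 by far, in peak lists of different lengths. Relative to the library's median over genes scored with all annotated starts, their log2 summit heights were -1.39 and -0.61. Those of Input were -0.53 and -0.42, and those of Myc 0.28 and 0.42. The values at the gene-level TSS of Rps2, Rps24 and Rpl17 therefore describe the most upstream annotated start and not the start at which the chromatin was most accessible. The mean of Rps10 mixes the downstream peak in Myc 2 and PCM1 1 with another peak in Input 1 and PCM1 2. The latter lay upstream of the gene-level TSS, within chr17:27637411-27637628.

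Rpl3 and Rps14 followed the same course. Rps14 helps form the platform of the small subunit and is lost in the 5q- syndrome. Its mean moved from 65.2 at the gene-level TSS to 92.4 at a downstream start, with the summit a median of 27510.5 bp downstream. For Rpl3 the mean moved from 64.2 to 92.0 at a downstream start, with the summit a median of 8435 bp downstream and the peaks within chr15:80083047-80083852. With all annotated transcript starts allowed, all 76 genes had a peak in all 6 libraries, compared with 61.1% of all protein-coding genes. The summit was then a median of 37.25 bp from the nearest annotated start, within 100 bp for 64 of the 76 genes and within 200 bp for 72. Rpl4, which forms part of the exit tunnel and hosts 5 snoRNA genes, was the exception. Its pileup was 93 and 13 in the Input libraries, 50 and 65 in those of Myc and 17 and 18 in those of PCM1. The 95% Poisson interval of the pileup of 13 in Input 2 ran from 6.92 to 22.2 and covers counting error only. In Input 2 and PCM1 2 the summit in the window of Rpl4 was at -589 and -586 bp from its TSS, on the side of the divergent gene Zwilch, whose TSS is 271 bp away.

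**Figure D2:**
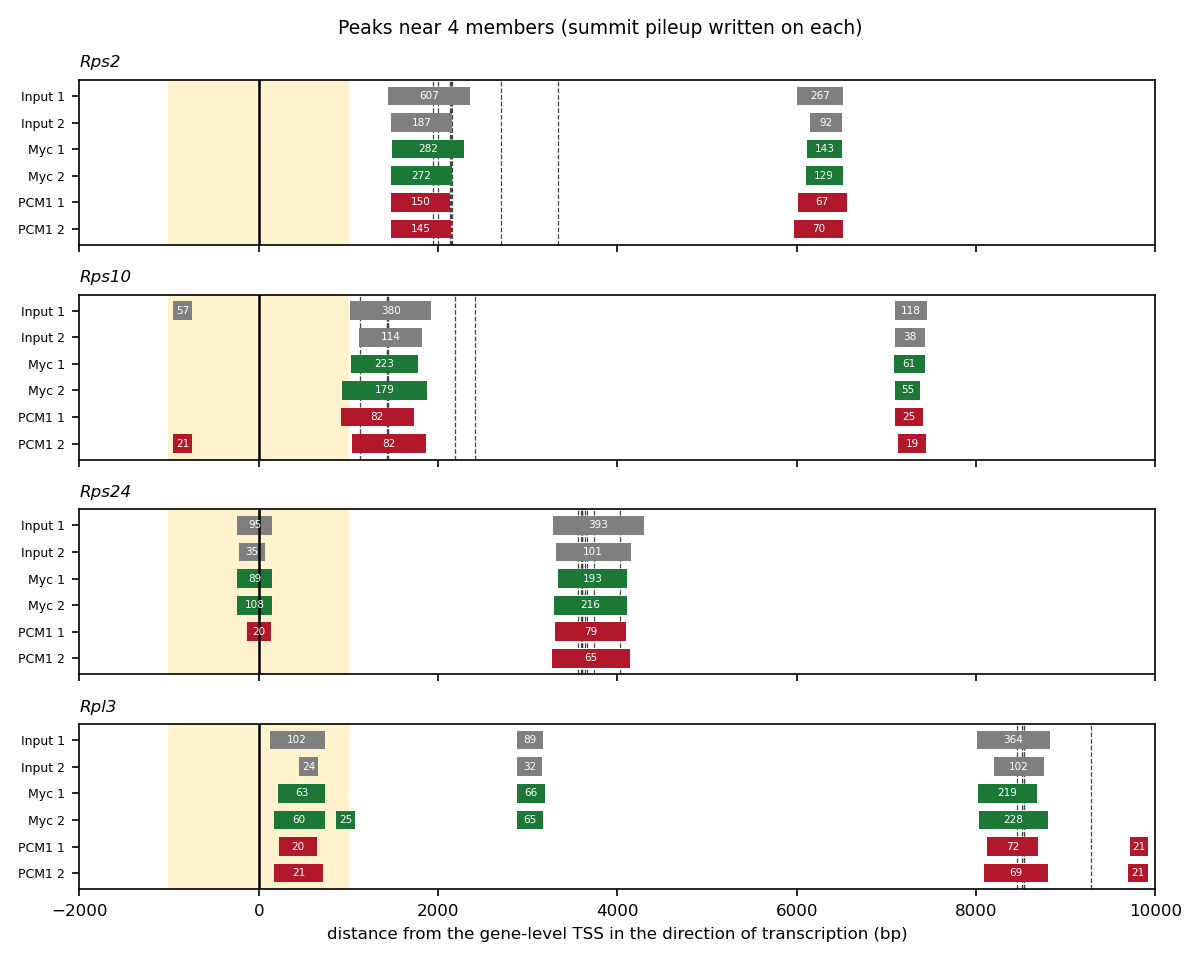
Peaks near Rps2, Rps10, Rps24 and Rpl3 in each of the 6 libraries, by distance from the gene-level TSS in the direction of transcription (bp), with the window of 1 kb shaded, other annotated transcript starts as dashed lines and the summit pileup written on each peak. The strongest peak of Rps2 sits 1843 bp, of Rps10 1350 bp, of Rps24 3537 bp and of Rpl3 8435 bp downstream of the gene-level TSS.

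The peaks were about as long as those of other open promoters, and their summits lay within 100 bp of the TSS more often in each of the 6 libraries. Their median length was 868.5 and 742 bp (Input), 816 and 817.5 bp (Myc) and 733 and 664.5 bp (PCM1), compared with 878 and 689, 809 and 805, and 728 and 716 bp over the 12311 genes. The median position of the summit was between -30 and -6 bp from the TSS, on the upstream side, and the summit lay within 100 bp of it for 63.9% of the 72 genes in Input 2 and 73.6% in Myc 2, the lowest and highest shares of the 6 libraries. Over all open promoters that share was 58.2% in Input 2 and 60.5% in Myc 2. The longest peaks were those of Rpl7 with a median of 1365 bp, Rpl38 with 1148.5 bp and Rpl10a with 1118 bp, and the shortest were those of Rps14 with 313.5 bp and Rps24 with 392 bp. The short peaks of Rps14 and Rps24 are the weak ones at their gene-level TSS, and those at their downstream starts were longer, except for Rps14 in Input 1 and Myc 1. In these the strongest peak in its window was a different one, of 1077 and 1131 bp, with its summit 828 and 1011 bp downstream of the TSS. Rpl7, Rpl38 and Rpl10a are proteins of the large subunit, of which Rpl38 is needed for patterning of the skeleton and Rpl10a is the protein of the L1 stalk.

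To compare groups, the summit pileup of each gene was divided by the median pileup in the same library over the 12311 genes with a peak in all 6, and expressed as log2. This relative summit height had a median over the 72 ribosomal protein genes of 0.18 and 0.24 for Input 1 and 2, 0.43 and 0.46 for Myc 1 and 2 and 0.21 and 0.31 for PCM1 1 and 2. Its SD across these genes was 0.81 and 0.87 in the Input libraries, 0.64 and 0.63 in those of Myc and 0.92 and 0.94 in those of PCM1, against 1.184 and 1.225 (Input), 1.082 and 1.101 (Myc) and 1.208 and 1.217 (PCM1) over the 12311 genes. Ribosomal protein promoters were thus more alike in height than open promoters in general, and both sets were most alike in Myc. The median difference between replicates was 0.17 for the Input pair, 0.13 for the Myc pair and 0.11 for the PCM1 pair. Replicates of Rpl4 differed by 0.88 in Input, those of Rps14 by 0.74 in PCM1 and those of Rpl14 by 0.53 in Myc, the largest of each group. With 2 libraries in each group, a two-sided exact permutation test cannot give a p below 0.333, so no p is given, and genes whose groups did not overlap are counted beside the same count over all genes. The 3 comparisons use the same libraries in pairs and are not independent of each other.

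The comparison of Myc with Input asks how nuclei of the Nkx2-5 lineage differ from all nuclei of the cushion. Relative to other open promoters, those of ribosomal proteins were higher in Myc. Both Myc libraries were above both Input libraries for 34 of the 72 genes (47.2%), compared with 21.4% of all genes, and below them for 15 (20.8%), compared with 42.7%. With heights scaled to the genome-wide background the counts were 63 above and 3 below, compared with 56.6% and 14.5% of all genes, and with scaling to the median of all peaks 22 above and 0 below, compared with 8.87% and 7.75%. The median difference was 0.17 on the log2 scale over the ribosomal protein genes and -0.11 over all genes. The all-gene median moved to 0.25 with background scaling and 0.06 with peak scaling. The distance of 0.28 between the median of the ribosomal protein genes and that of all genes is unaffected by these scalings, which shift every gene by the same amount. By subunit, 14 small subunit genes were above and 3 below, with a median of 0.19, and 20 large subunit genes were above and 12 below, with a median of 0.10.

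The largest difference was at Rps7, a small subunit protein that also binds Mdm2. Its relative height was -0.97 and -1.17 (Input), 0.01 and 0.27 (Myc) and -0.09 and -0.43 (PCM1). The Myc libraries were thus above both other groups, by 1.21 over Input, a difference exceeded by few genes, since it ranked at the 99.9th percentile of the 12311. Rpl26, which enhances translation of p53 mRNA, was at -0.61 and -0.58 in Input and 0.17 and 0.35 in Myc, a difference of 0.85. Rpl4 differed by 0.84, with Input libraries at -1.72 and -2.60 and Myc libraries at -1.52 and -1.13, and its groups overlapped with peak scaling. The value of Input 2 rests on a pileup of 13 at a summit -589 bp from the TSS, on the side of Zwilch. The summits of Input 1 and both Myc libraries lay nearer the TSS. Among the genes named by role, Rplp0 was at 0.49 and 0.20 in Input and 0.92 and 1.08 in Myc, a difference of 0.66, and Rps6 was at 0.21 and 0.46 in Input and 0.75 and 0.97 in Myc, a difference of 0.52. Rpl5 differed by 0.49 and Rpl3 by 0.44. The groups of Rplp0, Rps6, Rpl5 and Rpl3 did not overlap, also with both other scalings. These move each gene up on average in this comparison, so they are no check of the sign of a positive difference.

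In the other direction, Myc was below Input at Rps29, Rpl27 and Rps21, which were among the strongest promoters. Rps29 was at 1.69 and 1.85 in Input and 1.25 and 1.04 in Myc, a difference of -0.62. Rpl27 was at 1.67 and 1.84 in Input and 1.21 and 1.09 in Myc, a difference of -0.61. Rps21 was at 1.70 and 1.87 in Input and 1.34 and 1.35 in Myc, a difference of -0.44. All 3 differences were smaller with background scaling, at -0.27, -0.25 and -0.09, and with peak scaling they were -0.45, -0.44 and -0.27 with overlapping groups. Rps19 was lower in Myc by the main scaling, at -0.33, and its sign turned with background scaling, to 0.03. Rpl13a was at -0.15, which turned to 0.21 with background scaling and 0.02 with peak scaling, and Rpl36a and Rpl39 were at -0.34 and -0.31, which turned to 0.02 and 0.05 with background scaling. The groups of Rplp1, Rplp2, Rps3, Rps27a, Rpl10, Rpl11, Rps14, Rps4x and Rpsa overlapped between Myc and Input.

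Height itself went with the sign of the difference. Among 71 ribosomal protein genes with a base composition value, Spearman's rho between the mean relative height and the difference of Myc and Input was -0.66, and over 11995 open genes it was -0.39. These points are genes of the same 6 libraries, the height and the difference share those libraries, and genes are not independent replicates. Among the 36 genes with the lower mean heights, 24 were above and 3 below, with a median of 0.38, compared with 0.02 over 7295 genes in the same range, of which 29.7% were above and 26.5% below. Among the 35 with the higher mean heights, 10 were above and 12 below, with a median of -0.01, compared with -0.28 over 4700 genes, of which 8.30% were above and 67.9% below. In both ranges of height the median of the ribosomal protein genes was above that of the other open genes.

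The comparison of PCM1 with Input is between groups of the same genotype, with and without capture by the antibody. No common direction was seen for the ribosomal protein genes as a group. Both PCM1 libraries were above both Input libraries for 23 of the 72 genes (31.9%), compared with 29.4% of all genes, and below for 21 (29.2%), compared with 27.5%. The split was 16 above and 33 below with background scaling, compared with 18.4% and 39.1% of all genes, and 0 above and 38 below with peak scaling, compared with 0.276% and 47.1%. The median difference was -0.01 over the ribosomal protein genes and 0.01 over all genes, and the all-gene median moved to -0.11 and -0.55 with these scalings. Without Input 1, the deepest library, 26 genes were above and 34 below, compared with 38.6% and 38.7% of all genes, and without Input 2 34 were above and 26 below, compared with 40.9% and 35.3%. The subunits differed in these counts. Of the small subunit genes 15 were above and 5 below, with a median of 0.11, and of the large subunit genes 8 were above and 16 below, with a median of -0.05. Whether the subunits differ was not tested.

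Rps7, Rps4x and Rps14 were the small subunit genes with the largest positive differences, of 0.81, 0.72 and 0.64. They remained positive with background scaling, at 0.70, 0.61 and 0.52, and with peak scaling, at 0.25, 0.16 and 0.08, with overlapping groups in the latter for each of them and in the former for Rps14. The value of Rps14 is that of the weak peaks in the window of its gene-level TSS, which were not the same peak in each library. Its height at the downstream start was scaled to the median pileup over genes scored with all annotated starts. There it was at 0.24 and -0.06 (Input), 0.56 and 0.48 (Myc) and 0.16 and 0.12 (PCM1), where PCM1 and Input overlapped and PCM1 was below Myc. Rps4x, an X-linked gene whose human counterpart escapes X inactivation, was at -1.30 and -0.91 in Input and -0.47 and -0.29 in PCM1. Rpsa was at 0.09 and 0.40 in Input and 0.78 and 0.70 in PCM1, a difference of 0.50 that turned to -0.07 with peak scaling. Of the P-stalk genes, Rplp0 differed by 0.49 and Rplp1 by 0.38, which turned to -0.07 and -0.19 with peak scaling, and the groups of Rplp2 overlapped. Rplp0, Rplp1 and Rpsa thus had groups apart by the main scaling, and their direction depended on the scaling.

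The genes below Input had larger differences. Rpl23, a large subunit protein that can bind Mdm2, had relative heights of -0.01 and -0.22 in the Input libraries, 0.20 and 0.31 in those of Myc and -1.50 and -1.52 in those of PCM1. Its pileup was 304 and 68 (Input), 164 and 176 (Myc) and 24 and 23 (PCM1). The PCM1 libraries were lower by more than a log2 unit than each of the other 4, while replicates of Rpl23 lay close together. Its difference of -1.40 from Input was at the 0.0650th percentile of the 12311 genes. Rpl35a, another gene of Diamond-Blackfan anemia, was at -0.65 and -0.52 in Input and -1.63 and -1.65 in PCM1, a difference of -1.06. Rps20, a small subunit protein of the head, was at 0.33 and 0.45 for Input 1 and 2, 0.43 and 0.56 for Myc 1 and 2 and -0.66 and -0.46 for PCM1 1 and 2, a difference of -0.95 from Input. With background scaling the 3 differences were -1.51, -1.17 and -1.07, and with peak scaling -1.96, -1.62 and -1.51, since both move each gene down in this comparison and are no check of a negative difference. Rpl5 was also lower, at -0.96 and -0.96 in PCM1 against -0.60 and -0.33 in Input.

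The comparison of PCM1 with Myc sets the captured groups side by side, with antibody and genotype both differing. Relative to other open promoters, those of ribosomal proteins were lower in PCM1. PCM1 was above Myc for 21 of the 72 genes (29.2%), compared with 44.5% of all genes, and below for 37 (51.4%), compared with 25.6%. With background scaling 1 was above and 65 were below, compared with 14.2% and 60.7% of all genes, and with peak scaling 1 was above and 69 were below, compared with 5.65% and 78.9%. The median difference was -0.17 over the ribosomal protein genes and 0.13 over all genes, and the all-gene median moved to -0.35 and -0.61 with these scalings. The distance of -0.30 between the medians is again unaffected by scaling. Of the small subunit genes 8 were above and 13 below, with a median of -0.02, and of the large subunit genes 13 were above and 24 below, with a median of -0.18.

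Rpl23, Rpl9 and Rpl35a had the largest negative differences, of -1.77, -1.50 and -1.36. Both other scalings move each gene down in this comparison too, and cannot turn these. Rpl9, a large subunit protein, was at -0.55 and -0.20 in the Input libraries, 0.11 and 0.42 in those of Myc and -1.28 and -1.19 in those of PCM1. Rpl9 and Rpl35a share their promoter regions with divergent genes, Lias at 53 bp and Iqcg at 235 bp, so the peak cannot be assigned to either gene of each pair. The gene with PCM1 above Myc in each of the 3 scalings was Rps21. It was at 1.34 and 1.35 in the Myc libraries and at 2.22 and 2.19 in those of PCM1, with differences of 0.86, 0.39 with background scaling and 0.13 with peak scaling. Rps14 and Rpl36a differed by 0.70 and 0.51. These turned to -0.04 and -0.23 with peak scaling and were 0.22 and 0.03 with overlapping groups with background scaling. The order of PCM1 and Myc at Rps14 was the opposite at its stronger downstream start, as given above. Spearman's rho between mean height and the difference was 0.60 over 71 ribosomal protein genes and 0.29 over 11995 genes, with the same shared libraries as above. Of the 36 lower ribosomal protein genes, 5 were above and 27 below, compared with 31.2% and 33.9% of 7295 genes, and of the 35 higher ones 15 were above and 10 below, compared with 64.98% and 12.98% of 4700 genes.

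**Figure D3:**
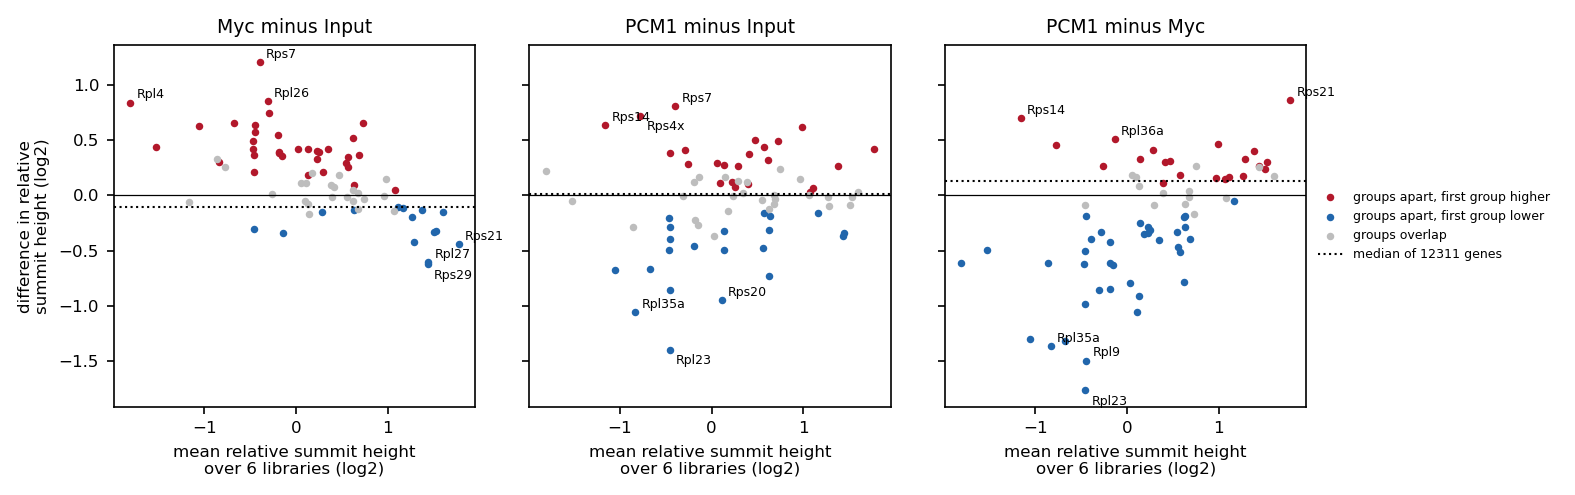
Difference in relative summit height between groups (log2, vertical axis) against the mean over 6 libraries (log2, horizontal axis) for the 72 ribosomal protein genes, a point each, with the 3 largest differences in each direction named and the median of the 12311 genes dotted; the 3 panels share libraries. Most points lie above the dotted line for Myc minus Input (34 apart above, 15 below; 63 and 3 with background scaling, 22 and 0 with peak scaling), and most lie below it for PCM1 minus Myc (21 and 37; 1 and 65, 1 and 69), while PCM1 minus Input has 23 and 21 (16 and 33, 0 and 38), and Rps14 and Rpl36a turn negative for PCM1 minus Myc with peak scaling.

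The cell types held by the groups were read from marker promoters by the same measures. Of 12 cardiomyocyte markers, 9 had a peak in all 6 libraries, with Myh6 the highest and none at Nkx2-5 and Tnni3. The summed rank percentile of the list was 897 and 820 (Input), 786 and 817 (Myc) and 836 and 834 (PCM1). Relative to other promoters, 8 of the 9 were lower in Myc than in Input and none higher, with a median of -0.38, compared with 42.7% and 21.4% of all genes. In PCM1 7 were higher than in Input and 0 lower, with a median of 0.33, compared with 29.4% and 27.5%. Between PCM1 and Myc, 8 were higher in PCM1 and 0 lower, with a median of 0.88, compared with 44.5% and 25.6%. Myh6, the main myosin heavy chain of the mouse atrium and adult ventricle, was at 2.26 and 2.42 for Input 1 and 2, 0.55 and 0.93 for Myc 1 and 2 and 2.75 and 2.73 for PCM1 1 and 2. By the main scaling, cardiomyocyte markers thus stood lowest in Myc, where ribosomal protein promoters stood highest. The markers were tall, with median relative heights of 0.81 and 0.86 (Input), 0.12 and 0.29 (Myc) and 0.84 and 0.97 (PCM1). Over the 4700 genes in the higher range of mean height, the Myc minus Input median was -0.28, with 8.30% above and 67.9% below. It was 0.01 for PCM1 minus Input and 0.29 for PCM1 minus Myc. The markers were not compared within ranges of height. The other scalings are not given for these markers. Background scaling moves the all-gene median for Myc minus Input from -0.11 to 0.25, about as far as the marker median of -0.38 lies from no difference. Their part in the differences of the ribosomal protein genes was not tested.

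Markers of other cell types were lower in rank. Of 8 fibroblast markers 5 had a peak in all 6 libraries, Col1a1 the highest, and the sum was 521 and 335 in the Input libraries, 488 and 535 in those of Myc and 323 and 270 in those of PCM1. Of 8 endothelial markers 6 did, Tie1 the highest and Vwf at 0, with sums of 493 and 320 (Input), 456 and 508 (Myc) and 336 and 379 (PCM1). Of 8 markers of smooth muscle and pericytes 7 did, Tagln the highest, with sums of 618 and 415 for Input 1 and 2, 491 and 566 for Myc 1 and 2 and 489 and 422 for PCM1 1 and 2. Of 8 epicardial markers 5 did, Tbx18 the highest and Msln at 0, with sums of 397 and 302 in the Input libraries, 409 and 395 in those of Myc and 298 and 254 in those of PCM1. The sums of these 4 lists were lower in Input 2 than in Input 1, which was deeper. Immune markers were mostly closed to detection, since Ptprc, Csf1r, Adgre1, Cd68 and Itgam had no peak in any library and 2 of 8, with Fcgr3 the highest, had one in all 6. The immune sums were 139 and 61.1 (Input), 91.1 and 101 (Myc) and 77.7 and 97.9 (PCM1). Of the 7 erythroid markers found, 2 had a peak in all 6, Klf1 the highest, while Alas2 and the 4 globin genes had none, and the sums were 149 and 121 for Input 1 and 2, 125 and 121 for Myc 1 and 2 and 95.2 and 133 for PCM1 1 and 2. Of all genes, 21.4% were above and 42.7% below for Myc against Input. The shares were 29.4% and 27.5% for PCM1 against Input, and 44.5% and 25.6% for PCM1 against Myc. Relative to other promoters, the endothelial markers had a median difference of 0.37 for Myc minus Input, with 3 of 6 above and 1 below. It was 0.23 for PCM1 minus Input, with 2 above and 0 below, and -0.06 for PCM1 minus Myc, with 2 above and 2 below. Those of smooth muscle and pericytes were at -0.12 for Myc minus Input, with 0 of 7 above and 2 below. They were at 0.28 for PCM1 minus Input, with 3 above and 2 below, and at 0.68 for PCM1 minus Myc, with 4 above and 2 below. The fibroblast medians were -0.01 for Myc minus Input, -0.13 for PCM1 minus Input and -0.15 for PCM1 minus Myc, and the epicardial ones -0.01, -0.18 and 0.06 in that order. The part of these cell types in the result was not tested either.

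Some ribosomal protein genes have a paralog that is used in particular tissues. Of 7 pairs, the member ranked higher than its paralog in 6 of 6 libraries in 3, where the paralog had no peak at its gene-level TSS in any library. These were Rpl3 with Rpl3l, a gene of striated muscle, Rpl10 with Rpl10l, a gene of the testis, and Rpl39 with Rpl39l. Their mean differences in rank percentile were 64.2 (SD 15.7), 91.9 (SD 2.82) and 86.9 (SD 5.59). No p is given for these 3, since a comparison with 0 only restates that the member had a peak in each library. In another 2 pairs the paralog ranked higher in 6 of 6 libraries, each with a two-sided exact permutation p of 0.0312 by sign flips over 6 libraries, the smallest it can give. The adjusted p was 0.0437 over all 7 pairs and 0.0625 over the 4 pairs with a peak at both genes, an adjustment chosen after seeing the data, so neither pair passed 0.05 without the other 3. Rpl36al, on chromosome 12, had a mean of 98.3 against 92.3 for the X-linked Rpl36a, a difference of -5.95 (SD 1.17). Rps27l, a target of p53, had a mean of 97.7 against 94.0 for Rps27, a difference of -3.69 (SD 2.22). With the strongest peak and ranks both by fold, the difference of Rpl36a and Rpl36al was -0.59 (adjusted exact permutation p 0.25). Rpl7 was 6.12 above Rpl7l1 on average and higher in 4 of 6 libraries, with an exact permutation p of 0.125 (adjusted 0.146), and this difference changed sign with peaks and ranks by fold and with summits inside the window. Rpl22 was at -1.10 relative to Rpl22l1 and higher in 3 of 6, with an exact permutation p of 0.625. The test takes all 6 libraries together and is no comparison of groups.

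Rpl3l had a peak at another annotated start, with its summit a median of 4754 bp downstream of the gene-level TSS and the peaks within chr17:24732380-24732821. The rank percentile there was 85.6 and 76.2 in the Input libraries, 66.3 and 75.4 in those of Myc and 86.6 and 80.4 in those of PCM1. Its relative height was -0.39 and -0.22 (Input), -1.29 and -0.93 (Myc) and 0.34 and 0.04 (PCM1). Rpl3 at its own downstream start was at 0.24 and 0.37 for Input 1 and 2, 0.63 and 0.69 for Myc 1 and 2 and 0.08 and 0.04 for PCM1 1 and 2. These heights were scaled to the median pileup over genes scored with all annotated starts, which is not the main scaling. By them, the order of the groups at Rpl3l was PCM1, Input, Myc and at Rpl3 it was Myc, Input, PCM1. Background scaling and peak scaling were not run at these starts, and peak scaling lowers PCM1 against Input by more than their distance at Rpl3l. With all starts allowed, Rpl3 exceeded Rpl3l by 13.6 percentile points on average and in 6 of 6 libraries.

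Other genes of translation were scored by the same rule. Fau, which encodes a ribosomal protein fused to a ubiquitin-like protein, and Rack1, a scaffold on the small subunit, had a peak in all 6 libraries, with means of 92.3 and 89.3. Rps3a1, which falls outside the rule by its symbol, had a mean of 92.9. Of 11 genes of elongation factors and proteins that act with them 10 had a peak in all 6. Over all 11, the means at the gene-level TSS ran from 99.6 at Tpt1 to 34.2 at Eef1a1. Of the 10, 1 was above and 5 below in Myc against Input, compared with 21.4% and 42.7% of all genes. Of 29 initiation factor genes 28 had a peak in all 6, with Eif4a1 at 99.6 and Eif4g1 without a peak, and 13 of the 28 were above and 9 below. Of 36 ribosome biogenesis genes 35 had a peak in all 6, with 15 of the 35 above and 8 below. Over all 36, the means ran from 99.9 at Nop14 to 36.4 at Nop10. Of 17 genes of growth control 16 had a peak in all 6, with Max at 99.8 and Larp4 without a peak, and 3 of the 16 were above and 4 below. Mitochondrial ribosomal proteins are encoded by a separate set of nuclear genes, of which 76 of 78 had a peak in all 6, with Mrpl18 at 99.9 and none at Mrpl35 and Mrps24. Of these, 31 were above and 21 below in Myc against Input, with a median of 0.10. In PCM1 against Myc 19 were above and 37 below, compared with 44.5% and 25.6% of all genes, with a median of -0.19. The cytosolic set had medians of 0.17 and -0.17 in the same comparisons, so both sets of ribosomal protein genes were on the same side of the all-gene medians of -0.11 and 0.13. The comparisons share the Myc libraries.

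Processed pseudogenes of ribosomal proteins are inserted copies of the mRNAs without the promoter. Only annotated pseudogenes whose symbol is a ribosomal protein symbol followed by -ps were counted, and copies under other symbols were not searched. There were 292 with such a symbol, of which 262 (89.7%) had no peak within 1 kb of their start in any library. Per library 21 and 14 had a peak in the Input libraries, 20 and 19 in those of Myc and 11 and 11 in those of PCM1, and 8 had a peak in all 6. The highest, named after their values were seen, were Rpl29-ps2 with a mean rank percentile of 92.6, at 160 bp from the TSS of Akr1e1, and Rpl35a-ps3 with 88.8, inside Rab44. Of the 76 genes 59 have at least 1 pseudogene named in this way, with 24 such copies of Rpl31 and 23 of Rps12. Open chromatin was therefore found at nearly all ribosomal protein genes and at few of the copies named after them.

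The genes are spread over the genome, with 14 on chromosome 7, 7 on chromosome 11 and 4 on chromosome X. For the counts below, the shares over all genes were 21.4% above and 42.7% below for Myc against Input, and 44.5% and 25.6% for PCM1 against Myc. The X-linked genes Rpl10, Rpl36a, Rpl39 and Rps4x had a median difference of -0.24 for Myc minus Input, with 0 above and 2 below, and of 0.40 for PCM1 minus Myc, with 3 above and 0 below. Over the 68 autosomal members with a peak in all 6 libraries the medians were 0.19 and -0.19, and over 356 X-linked genes -0.18 and 0.16, close to the all-gene medians of -0.11 and 0.13. Of the 356, 53 were above and 174 below for Myc minus Input, and 148 above and 76 below for PCM1 minus Myc. The 4 genes were not of 1 direction, since Rps4x was at 0.26 for Myc minus Input and Rpl39 at -0.08 for PCM1 minus Myc, both with overlapping groups, and their difference from the other members was not tested. Within introns, 29 of the 76 genes host snoRNAs, which guide modification of rRNA. Of the 27 hosts with a peak in all 6 libraries, 12 were above and 6 below in Myc against Input, and of the 45 other members 22 were above and 9 below. In PCM1 against Myc, 4 hosts were above and 16 below, with a median of -0.29, and 17 other members were above and 21 below, with a median of -0.09. A protein-coding TSS on the other strand lay within 1 kb for 15 genes. Of the 13 with a peak in all 6 libraries, 8 were above and 1 below in Myc against Input, with a median of 0.31, and of the 59 other members 26 were above and 14 below, with a median of 0.11. In PCM1 against Myc, 2 of the 13 were above and 10 below, with a median of -0.40, and 19 of the 59 were above and 27 below, with a median of -0.08. Whether these sets differ was not tested. The peaks of these 15 cannot be assigned to either gene.

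Sequence around the gene-level TSS, from 250 bases before to 50 after, was searched on both strands in 74 genes, leaving out chromosome 18. Its median GC content was 55.5%, compared with 55.0% of all genes and 60.3% of open genes, and the ratio of observed to expected CpG was 0.829, compared with 0.522 and 0.751. CCGGAAG, the core bound by ETS factors, was found in 20 genes (27.0%), compared with 10.7% of all 21425 promoters and 16.9% of 11995 open ones. TCGCGAGA was found in 11 genes (14.9%), compared with 1.39% of all promoters and 2.25% of open ones. Among them were Rpl23a, Rpl26, Rpl27a, Rpl4, Rpl7a, Rps15a, Rps19, Rps28 and Rps6. Of the 11 genes, all with a peak in all 6 libraries, 9 were above and 2 below in Myc against Input, with a median of 0.41, and 1 was above and 9 below in PCM1 against Myc. Of the 60 members without it that had a peak in all 6, 25 were above and 13 below in Myc against Input, with a median of 0.13, and 19 above and 28 below in PCM1 against Myc. Of all genes, 21.4% were above and 42.7% below in Myc against Input, and 44.5% and 25.6% in PCM1 against Myc. The E-box CACGTG was found in 11 (14.9%, all promoters 7.75%, open ones 10.2%), the YY1 motif AAGATGGC in 5 (6.76%, all 2.90%, open 4.19%), the CRE TGACGTCA in 5 (6.76%, all 2.46%, open 3.56%), and the NRF1 motif GCGCATGC in 3 (4.05%, all 3.72%, open 5.29%). The SP1 motif GGGCGG was found in 34 (45.9%), compared with 42.9% of all and 63.6% of open promoters, and the NF-Y motif CCAAT in 24 (32.4%, all 39.1%, open 38.5%). Of the 34 genes with the SP1 motif, 11 were above and 11 below in Myc against Input, and of the 37 without it that had a peak in all 6, 23 were above and 4 below. With the NF-Y motif 7 of 23 were above and 8 below, and without it 27 of 48 and 7. The median relative height in Input 1 and 2 was 0.32 and 0.35 with the SP1 motif and 0.10 and 0.24 without it. With TCGCGAGA it was 0.03 and 0.09, and without it 0.22 and 0.25. Whether members with and without a motif differ, apart from their height, was not tested. TATAAA between 40 and 20 bases before the TSS was found in 0 genes, in 2.28% of all promoters and in 0.900% of open ones. A match is a description of letters and not a bound site.

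A run of at least 8 pyrimidines on the gene strand that touched the 20 bases to either side of the TSS was found in 28 of 74 genes (37.8%), compared with 20.9% of all promoters and 19.6% of open ones, and it covered the TSS in 8 (10.8%, all 3.85%, open 4.02%). The RefSeq promoter table on GRCm38.p6 has an entry for 56 of the 76 genes, and at its starts the run was found in 30 (53.6%), compared with 23.5% of all promoters in the table, and covered the start in 17 (30.4%, all 4.29%). CCGGAAG was found in 23 of the 56 (41.1%, all 13.4%) and TCGCGAGA in 10 (17.9%, all 1.63%). The E-box was found in 6 (10.7%, all 9.18%). These 56 genes are not the same set as the 74, so the shares at RefSeq and gene-level starts are not a comparison of starts.

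Promoter sequences of 8 genes are given from RefSeq (GRCm38.p6), from 120 bases before the RefSeq start to the start and the bases after it, 150 in all, in the direction of transcription. Rps21 and Rpl15 were the strongest small and large subunit promoters, Rps10 and Rps24 show the downstream starts where their peaks were found, Rpl4 was the weakest with a peak in all 6 libraries, Rps6 and Rps19 hold TCGCGAGA, and Rps4x is X-linked. Their intervals are chr2:180257259-180257408, chr14:18270957-18271106, chr17:27635215-27635364, chr14:24490558-24490707, chr9:64173267-64173416, chr4:86857338-86857487, chr7:24884472-24884621 and chrX:102189362-102189511, in the order of the lines. Rpl15, Rps10, Rps6 and Rps4x are on the minus strand and the others on the plus strand. Capitals mark matches on either strand to the ETS, SP1 and NF-Y motifs and to TCGCGAGA, and pyrimidine runs of at least 8 bases that touch the 20 bases to either side of the start.
Rps21: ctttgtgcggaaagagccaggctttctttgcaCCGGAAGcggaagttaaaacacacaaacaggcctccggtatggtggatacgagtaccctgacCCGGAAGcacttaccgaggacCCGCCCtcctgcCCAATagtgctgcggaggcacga
Rpl15: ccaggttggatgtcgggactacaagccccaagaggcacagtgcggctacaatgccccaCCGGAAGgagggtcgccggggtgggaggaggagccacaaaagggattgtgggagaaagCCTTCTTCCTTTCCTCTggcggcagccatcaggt
Rps10: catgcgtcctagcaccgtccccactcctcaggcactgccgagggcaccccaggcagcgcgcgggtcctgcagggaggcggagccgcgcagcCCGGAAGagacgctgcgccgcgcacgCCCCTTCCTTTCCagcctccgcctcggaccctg
Rps24: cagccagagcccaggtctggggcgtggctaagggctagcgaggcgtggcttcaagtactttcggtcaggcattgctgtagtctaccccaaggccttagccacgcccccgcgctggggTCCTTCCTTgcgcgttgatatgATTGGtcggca
Rpl4: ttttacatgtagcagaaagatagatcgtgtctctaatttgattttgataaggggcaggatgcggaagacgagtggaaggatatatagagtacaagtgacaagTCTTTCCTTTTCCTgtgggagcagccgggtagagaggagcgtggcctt
Rps6: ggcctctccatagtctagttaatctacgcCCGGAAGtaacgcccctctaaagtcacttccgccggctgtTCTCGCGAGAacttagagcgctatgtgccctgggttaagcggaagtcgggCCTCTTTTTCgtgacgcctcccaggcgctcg
Rps19: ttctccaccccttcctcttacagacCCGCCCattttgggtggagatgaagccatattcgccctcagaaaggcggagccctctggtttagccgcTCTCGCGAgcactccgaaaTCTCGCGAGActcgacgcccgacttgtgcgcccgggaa
Rps4x: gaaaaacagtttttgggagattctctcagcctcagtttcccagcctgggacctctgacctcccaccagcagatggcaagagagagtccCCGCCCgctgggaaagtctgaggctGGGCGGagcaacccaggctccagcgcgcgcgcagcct
Rps21 holds 2 ETS motifs before the start. Rpl15 and Rps10 have pyrimidine runs of 17 and 13 bases over the start, and Rps6 and Rps24 of 10 and 9. Rps6 and Rps19 hold TCGCGAGA before the start. Rps19 and Rps4x have no marked pyrimidine run, and the matches of Rps4x are to the SP1 motif.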

How the data were processed

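Per the labels, reads were mapped to mm10, and the submitters' processing notes name Bowtie2 2.3.3.1, Picard 2.2.1, bedtools 2.7.1, FastQC 0.11.5, HOMER and MACS2 2.1.0.20160309. The authors trimmed reads, marked duplicates, removed blacklisted regions, shifted alignments for the transposase and called peaks per library at a q-value threshold of 0.05, without pooling replicates. In the deposited lists, the fold is the ratio of summit pileup over local background, and further columns give p-values and q-values as -log10 and a score, 10 times the latter. No read counts were used.

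The summit pileup was solved from the fold and the p-value and came out whole within 0.02 for at least 99.9977% of peaks. Depth sets which peaks are called, and the background value seen most often stood for the depth of a library. TSS windows came from GENCODE M21. The work used Python 3.11.15, numpy 2.4.6, pandas 2.3.3 and scipy 1.17.1, with plots by matplotlib 3.10.9, and was tested on simulated data. Paralog pairs were tested by two-sided exact permutation with Benjamini-Hochberg adjustment, and a pair with Rps4l was not analysed here. Members and lists were chosen with earlier results of these data known. Lists were paralogs, ribosomal genes outside the rule, elongation, initiation, biogenesis, growth control, mitochondrial ribosomal proteins, pseudogenes and 7 marker lists (cardiomyocyte, immune, erythroid, epicardial, endothelial, fibroblast, and smooth muscle with pericyte).

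Named genes were members lacking a peak in any library, the 5 highest and 5 lowest by mean rank percentile, the 3 largest differences per comparison and direction among groups apart, 17 genes by role, paralog pairs, the 3 longest and 3 shortest peaks, and the highest and lowest gene of each list, of which some are not reported here. Others named were chosen after their values were seen. Alternatives were q-values under 0.01, equally long lists, windows of 200 bp and 2 kb, all transcript starts, summits inside the window, strongest peaks and ranks both by fold, scaling by background or by all peaks, the replicate number as a block, each library left out, paralog pairs with a peak at both genes (added after seeing the data), RefSeq starts and pyrimidine runs of 6.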

Additional observations from a re-analysis of the deposited data

How the results depend on the processing

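Of 280 values under alternatives, 214 were counted as unchanged. For a tested pair this means the same direction and side of the threshold at any size, for a count a change of at most 1.5 times, and for other values a change below the spread between replicates. The count of genes with a peak in all libraries stayed between 70 and 76. The mean over libraries of the median rank percentile was 93.0 and became 90.4 with the strongest peak and ranks both by fold. Of the 5 paralog pairs with an adjusted p under 0.05, 3 of them with a paralog at 0, 0 passed when adjusted over pairs with a peak at both genes (chosen after seeing the data), 0 with the window of 200 bp, and 0 in each of the 6 analyses without a library (lowest 0, highest 0), where none could pass, since sign flips over 5 libraries give no exact permutation p below 0.0625 before adjustment. Rpl7 minus Rpl7l1 reversed to -16.4 with peaks and ranks by fold (adjusted exact permutation p 0.0365) and -9.36 with summits inside the window, and Rpl22 minus Rpl22l1 to 0.19 without PCM1 1 (from -1.60 to 0.19 over the 6 analyses without a library). With peaks and ranks by fold Rpl36a minus Rpl36al was -0.59 (adjusted exact permutation p 0.25) and Rpl22 minus Rpl22l1 -4.00 (adjusted exact permutation p 0.0365). With all starts Rpl3 minus Rpl3l was 13.6 in place of 64.2, and with the window of 200 bp it was 34.6. Scaling moved the counts most. Myc above Input became 63 with background scaling and 22 with peak scaling, Myc below Input 3 and 0, PCM1 below Input 33 and 38, PCM1 above Myc 1 and 1, and PCM1 below Myc 65 and 69, while PCM1 above Input became 0 with peak scaling. Leaving out a library gave between 21 and 34 genes with PCM1 below Input, the highest without Input 1 (38.7% of all genes), and moved no other height count by over 1.5 times. The distance between the medians for PCM1 minus Myc was -0.24 with the window of 200 bp. The share with a pyrimidine run was 53.6% at RefSeq starts, over 56 genes (23.5% of all promoters), and 66.2% for runs of 6 (44.0%). With the replicate block, Myc was above Input for 37 genes and below for 19 (26.2% and 47.7% of all genes), PCM1 above Input for 26 and below for 25 (35.5% and 33.1%), and PCM1 above Myc for 23 and below for 37 (49.0% and 29.6%). Deviations of libraries with the same number correlated by 0.03, -0.01 and 0.03 over 12311 genes, so no pairing by number was seen in the heights. Whether libraries of the same number were prepared together cannot be told from these correlations. Presence of a peak depends on depth, and without read counts a height below the calling threshold could not be measured.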
